A study of Mus musculus with 8 samples.

Results

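The ectonucleotidases and adenosine receptors comprised 7 genes chosen by name, Entpd1 (CD39), Nt5e (CD73), Ada, Adora1, Adora2a, Adora2b and P2rx7, and all 7 were found among the 49315 genes of the deposited counts. They were examined in RNA-seq of mouse bone marrow stromal cells that had been sorted into 7 populations, called clusters 1 to 7, and in 1 library of input bone marrow cells. Each population had 1 library, so no spread between sorts could be measured and no test between populations was possible. All samples came from wild-type C57BL/6J mice aged 6 weeks by the labels. The study's methods name C57BL/6JJcl mice, C57BL/6 mice transgenic for CAG-EGFP and a wider range of ages, and do not say which mice gave these libraries. The cells were gated as negative for CD31, CD45 and Ter119, and no treatment was named. Cluster 1 was gated as Sca-1+ CD39+ CD24-, cluster 2 as Ly-6C- CD39- CD24-, cluster 3 as Ly-6C+ CD24+ without CD39 and CD54, cluster 4 as Ly-6C- CD54+ CD24-, cluster 5 as CD54+ CD121b- without CD24 and Ly-6C, cluster 6 as CD24+ Sca-1- CD39-, and cluster 7 as CD54- Sca-1+ without CD24 and Ly-6C. How many animals were pooled for each library is not given in the sources used here.

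ATP that leaves a cell acts as a danger signal on P2 receptors, and enzymes on the cell surface break it down stepwise. CD39 converts ATP and ADP to AMP, and CD73 converts AMP to adenosine. Adenosine acts on its own G protein-coupled receptors, which raise or lower cyclic AMP, and is removed by adenosine deaminase or by uptake and phosphorylation. Mesenchymal stromal cells are known to carry CD73, which is used as one of their surface markers, and adenosine made by CD39 and CD73 is known for dampening immune cells.

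Expression is given as RPKM, reads on a gene relative to its exon length in kilobases and to the counted reads of the library, so that genes of different length can be set side by side. Ranges after a value are 95% intervals of counting error (exact Poisson for a level, exact conditional binomial for a ratio), and they leave out the variation between sorts. The counted reads numbered 24205863, 25349917, 27102715, 32549319, 12833648, 31669132 and 33238133 in clusters 1 to 7 in turn and 20162876 in the input. In cluster 5, 34.8% of the reads lay on 3 loci, Rn18s-rs5, Lars2 and mmu-mir-689-2, compared with 10.4% in cluster 2 and at most 1.91% in the other libraries, so the RPKM of any other gene in cluster 5 is low relative to a scaling that leaves these loci out. Scaling with edgeR's TMM factors shifted all log2 RPKM values by -0.68 in the input, 0.44 in cluster 5, 0.37 in cluster 6 and -0.14 in cluster 1, with at most 0.05 in either direction for the remaining libraries.

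The stromal character of the sorted libraries was checked with Pdgfra, Pdgfrb, Cxcl12, Lepr, Col1a1, Col1a2 and Ly6a. Their summed RPKM ranged from 4607 in cluster 4 to 22067 in cluster 6, above 2065 in the input, and none of the 7 genes was at 0 in any library. Most of this sum was Col1a1 and Col1a2, which were lower in the input than in every sorted library, and the other markers had another order. Pdgfra was 14.1 in the input and lower in clusters 2 (4.37), 5 (7.51) and 6 (7.44), although with TMM factors only cluster 2 was below the input. Cxcl12 was 27.0 in the input and lower in clusters 2, 3 and 6. Ly6a (Sca-1) was 461 in the input and lower in clusters 2, 4, 5, 6 and 7, of which cluster 4 was above the input with TMM factors (442 compared with 289). Ptprc, which encodes CD45 and against which the cells were gated, had RPKM 2.92, 2.58, 1.69, 2.76, 1.80, 4.02 and 9.26 in clusters 1 to 7 in turn and 13.5 in the input. It was detected in all 7 sorted libraries and was highest among them in cluster 7, which with TMM factors lay above the input (8.94 compared with 8.43). In such bulk libraries, fewer cells of a type and less RNA per cell cannot be told apart.

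Promoters are shown for Entpd1 and its relatives Entpd2 and Entpd3, whose levels diverged among the populations, and for Adora2b, the most abundant of the adenosine receptors. Each is the run of 250 bases before a RefSeq start site in GRCm38.p6, read 5′ to 3′ on the strand of the gene, and none of the 4 overlaps an annotated exon. Capitals mark matches, on either strand, to the GC box GGGCGG, the CCAAT box CCAAT, the hypoxia response core ACGTG, the Runx motif TGTGGT or the short cAMP response element TGACG.
Entpd1, second start site, chr19:40659520-40659769, plus strand: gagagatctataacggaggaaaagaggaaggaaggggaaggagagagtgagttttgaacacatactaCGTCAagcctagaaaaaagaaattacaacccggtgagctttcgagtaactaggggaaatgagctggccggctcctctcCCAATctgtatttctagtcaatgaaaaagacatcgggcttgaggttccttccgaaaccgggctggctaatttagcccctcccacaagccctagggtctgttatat
Entpd2, chr2:25395624-25395873, plus strand: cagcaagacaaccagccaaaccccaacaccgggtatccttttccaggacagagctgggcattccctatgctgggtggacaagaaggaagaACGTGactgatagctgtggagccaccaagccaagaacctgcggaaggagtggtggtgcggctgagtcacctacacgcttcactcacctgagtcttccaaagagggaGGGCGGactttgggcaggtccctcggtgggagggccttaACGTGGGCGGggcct
Entpd3, chr9:120539568-120539817, plus strand: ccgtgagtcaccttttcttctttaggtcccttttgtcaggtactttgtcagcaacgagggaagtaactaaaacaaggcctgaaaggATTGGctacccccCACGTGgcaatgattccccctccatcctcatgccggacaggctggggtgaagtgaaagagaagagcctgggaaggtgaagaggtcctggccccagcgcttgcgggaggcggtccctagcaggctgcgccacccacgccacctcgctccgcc
Adora2b, chr11:62248734-62248983, plus strand: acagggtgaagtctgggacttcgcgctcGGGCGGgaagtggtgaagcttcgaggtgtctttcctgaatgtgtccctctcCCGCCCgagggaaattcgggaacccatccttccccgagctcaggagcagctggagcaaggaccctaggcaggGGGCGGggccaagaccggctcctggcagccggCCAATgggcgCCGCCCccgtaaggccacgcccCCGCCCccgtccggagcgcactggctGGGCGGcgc

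The Adora2b window held 6 GC boxes and 1 CCAAT box, with a GC content of 69.6% and 22 CpG dinucleotides, compared with medians of 52.4% and 6 over the 32851 promoter windows. The window of the second Entpd1 start site had 47.2% GC, 8 CpG dinucleotides, 1 CCAAT box and 1 TGACG on the opposite strand. That of the first start site, which overlaps an exon and is not printed, had 62.4% GC and 18 CpG dinucleotides. It held 2 CCAAT boxes and 1 match to TGACG, counted on either strand. Entpd2 held 2 GC boxes and ACGTG at 2 places, the latter of which overlaps a GC box. Entpd3 held 1 CCAAT box and the palindrome CACGTG, in which ACGTG is read once on each strand. Among all windows, 32.7% held GGGCGG, 33.8% CCAAT, 16.6% ACGTG, 14% TGTGGT and 17.8% TGACG. A match is a description of the sequence, and no binding was measured.

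Of the 7 genes, 5 had RPKM above 2 in at least 1 sorted library, and Adora1 and Adora2a did not. Entpd1, Nt5e, Ada and Adora2b differed more than 2-fold in RPKM + 1 between their highest and lowest sorted libraries, which was true of 70.6% of all genes tested. With TMM factors Ada no longer passed and 3 of the genes did, where 56.8% of all genes tested did. A share of 4 of the 5 tested is near the background and is not particular to the 7 genes. P2rx7 missed the threshold, with a log2 range of 0.93. The median log2 range was 1.33 over all 7 genes and 1.96 over the 5 above RPKM 2, compared with 0.29 over all 49315 genes and 1.26 over the 12360 tested. Entpd1, Ada and Adora2b were highest in cluster 7 among the sorted libraries, the position of 25.3% of all genes tested, and Nt5e was highest in cluster 6, the position of 7.10%. With TMM factors the genes kept these positions, and the shares of all genes were 17.1% for cluster 7 and 20.9% for cluster 6.

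**Figure D1:**
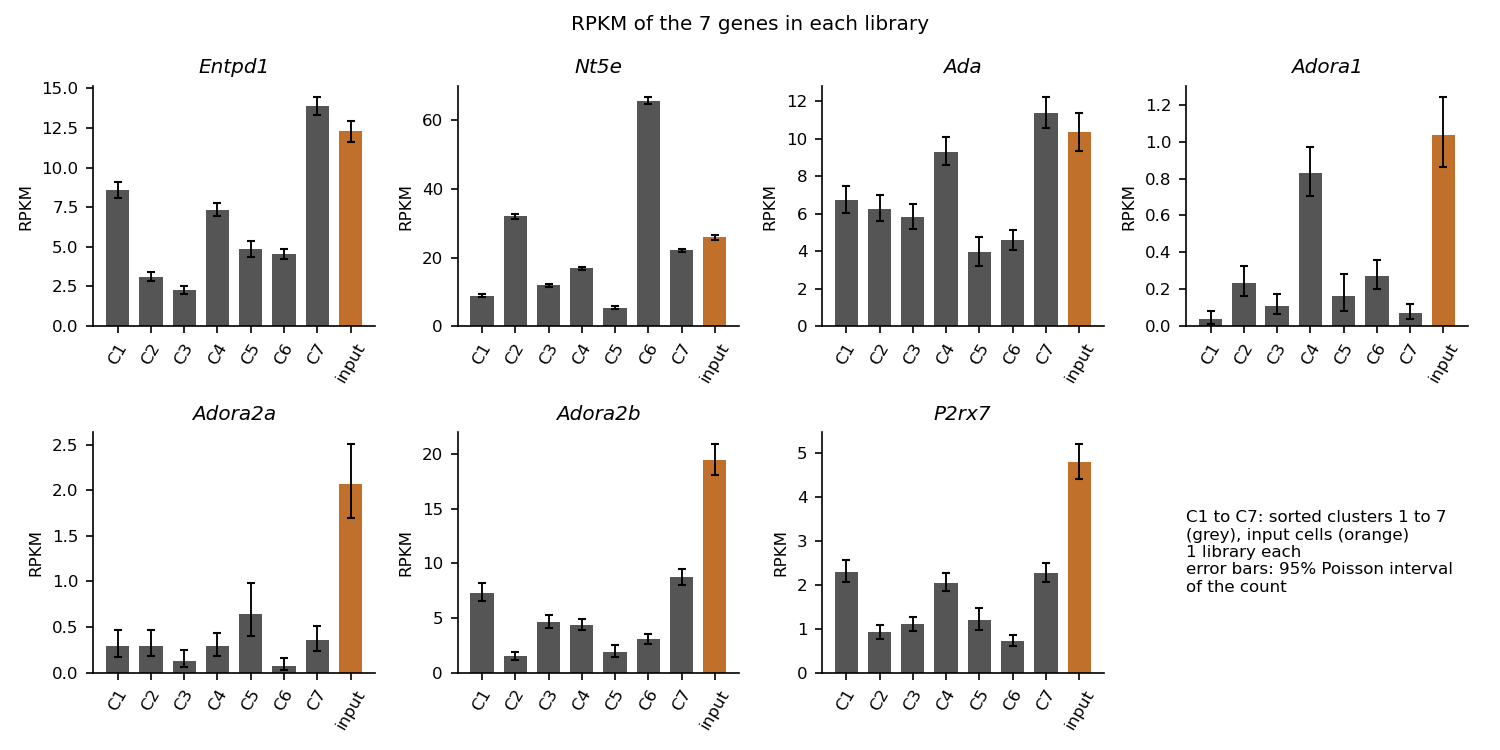
RPKM (vertical axes, each from 0) of the 7 genes in the libraries of clusters 1 to 7 (grey) and of input cells (orange), 1 library each, with 95% Poisson intervals of the count as error bars. Nt5e stands out in cluster 6 at 65.7, Entpd1 is highest in cluster 7 at 13.9, and Adora2b is highest in the input at 19.5.

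Entpd1 (ENSMUSG00000048120, chr19:40612366-40741602 of GRCm38, plus strand) encodes CD39, which starts the breakdown of extracellular ATP. Its RPKM was 8.55, 3.10, 2.27, 7.34, 4.85, 4.52 and 13.9 in clusters 1 to 7 in turn and 12.3 in the input, from between 343 and 2573 reads. The level was thus high in clusters 7, 1 and 4 and low in clusters 2 and 3. Cluster 7 had 6.12 times the RPKM of cluster 3 (5.46 to 6.87). In the order of the sorted libraries, only the neighbouring clusters 5 and 6 had a ratio whose interval held 1 (1.07, 0.943 to 1.22). Cluster 7 was also above the input, by a ratio of 1.13 (1.06 to 1.21) that was 1.74 with TMM factors. Under TMM factors cluster 1 (7.74) was barely above the input (7.69), and with DESeq2 size factors it was below (7.54 compared with 7.79).

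As CD39 protein was itself used for sorting, the next values check the labels and are not a finding. The CD39+ cluster 1 had 2.76 times the Entpd1 RPKM of the CD39- cluster 2 (2.47 to 3.09), 3.77 times that of cluster 3 (3.34 to 4.27) and 1.89 times that of cluster 6 (1.73 to 2.08). The transcript thus followed the gate in each of the 3 ratios, although with TMM factors the ratio to cluster 6 was 1.33. An exact permutation test of 1 library against 3 cannot give a p below 0.25 and was not used. By the rule of more than 2-fold in RPKM + 1 over each of clusters 2, 3 and 6, cluster 1 did not pass for Entpd1, whereas 2.53% of genes tested passed. Cluster 7, which was not selected for CD39, had more Entpd1 than the CD39+ population, with a ratio of 1.62 (1.51 to 1.74).

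Nt5e (ENSMUSG00000032420, chr9:88327197-88372092, plus strand) encodes CD73, which forms adenosine from AMP. Its RPKM was 8.82, 32.0, 11.9, 16.8, 5.36, 65.7 and 22.1 in clusters 1 to 7 in turn and 25.9 in the input, from between 592 and 17905 reads. It had the widest range of the 7 genes on the log2(RPKM + 1) scale, being high in clusters 6 and 2 and low in clusters 5 and 1. Cluster 6 had 12.3 times the RPKM of cluster 5 (11.3 to 13.3) and 2.54 times that of the input (2.46 to 2.63), the latter 5.23 times with TMM factors. The intervals of 0 of the 6 neighbouring pairs in the order held 1. Leaving Rn18s-rs5, Lars2 and mmu-mir-689-2 out of the totals brought the cluster 5 level to 8.23, which was still the lowest, and the ratio of cluster 6 to it to 8.10.

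The CD73 and CD39 transcripts therefore had different orders, and their ratio within a library does not depend on its scaling. Nt5e RPKM divided by Entpd1 RPKM was highest in cluster 6, at 14.6 (13.6 to 15.6), with 10.3 in cluster 2 (9.38 to 11.4) and 5.23 in cluster 3 (4.68 to 5.87). It was 2.29 in cluster 4 (2.15 to 2.44) and 1.59 in cluster 7 (1.52 to 1.67), and near 1 in clusters 5 (1.11, 0.968 to 1.27) and 1 (1.03, 0.958 to 1.11). The input had a ratio of 2.11 (1.98 to 2.24). The highest ratios were those of clusters 6, 2 and 3, the gates without CD39, and the lowest was that of the CD39+ cluster 1, with an interval that overlaps that of cluster 5. The sort used the protein of the denominator, so this order is not independent of the gates. Over the 7 sorted libraries Pearson's r between the log2(RPKM + 1) values of Entpd1 and Nt5e was -0.08, a description of 7 points.

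**Figure D2:**
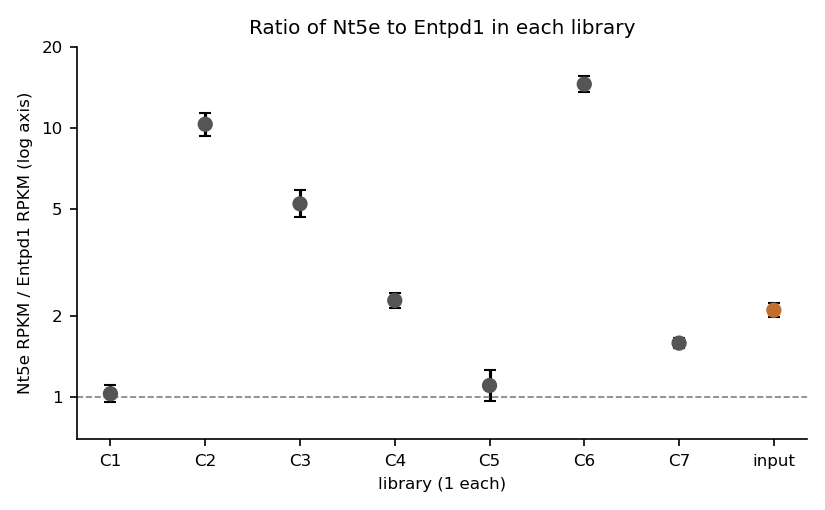
Nt5e RPKM divided by Entpd1 RPKM (log axis) in clusters 1 to 7 (grey) and the input (orange), 1 library each, with 95% exact conditional binomial intervals as error bars and a dashed line at a ratio of 1. Clusters 6 (14.6) and 2 (10.3) lie highest, and the intervals of clusters 1 and 5 include 1.

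Entpd1 was a minor part of the cell surface ENTPDase transcripts. Entpd2 encodes a relative that acts mainly on ATP, and Entpd3 one that acts on ATP and ADP. Of the summed RPKM of Entpd1, Entpd2, Entpd3 and Entpd8, Entpd1 took between 5.61% in cluster 3 and 21.2% in cluster 2 of the sorted libraries, and 25.0% in the input. The sum itself was 96.5, 14.6, 40.4, 118, 25.1, 45.4 and 86.2 in clusters 1 to 7 in turn and 49.2 in the input. It was highest in clusters 4, 1 and 7, which among the sorted libraries also had the highest Entpd1.

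Entpd2 had RPKM 87.5, 7.40, 10.1, 110, 13.9, 1.65 and 71.0 in clusters 1 to 7 in turn and 31.8 in the input. Entpd3 had RPKM 0.484, 4.11, 28.0, 0.655, 6.31, 39.2 and 1.30 in clusters 1 to 7 in turn and 2.89 in the input. The paralogs thus changed places, with Entpd2 at 82.3% to 93.2% of the family sum in clusters 1, 4 and 7, and Entpd3 at 69.3% and 86.4% in clusters 3 and 6. Entpd2 in cluster 4 was 66.8 times that of cluster 6 (55.4 to 81.4), and Entpd3 in cluster 6 was 81.1 times that of cluster 1 (60.3 to 112). In Entpd2, 612 exonic bases overlap Npdc1 on the same strand, so its reads could be shared. Pearson's r with Entpd1 over the 7 sorted libraries was 0.73 for Entpd2 and -0.72 for Entpd3.

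**Figure D3:**
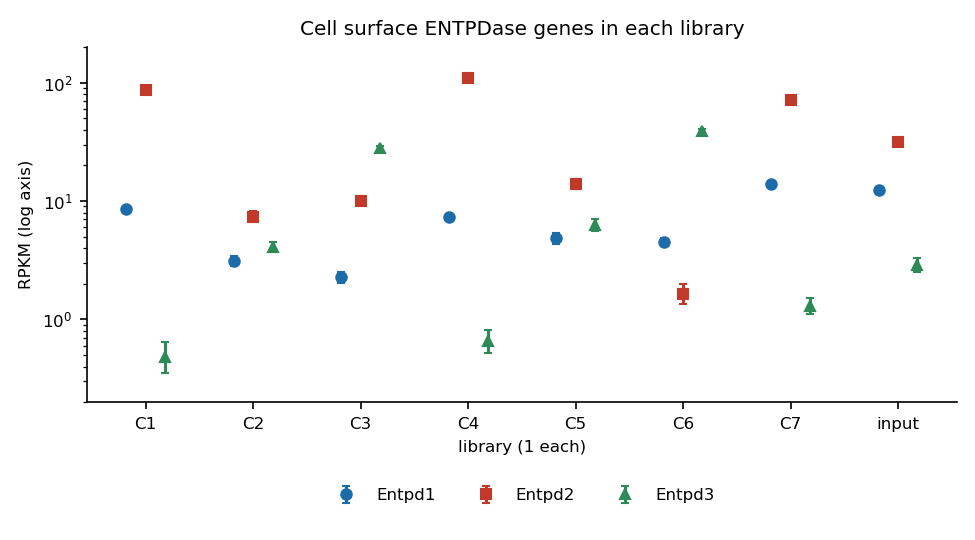
RPKM (log axis) of Entpd1 (blue circles), Entpd2 (red squares) and Entpd3 (green triangles) in clusters 1 to 7 and the input, 1 library each, with 95% Poisson intervals of the count. Entpd3 is the highest of the 3 in clusters 3 and 6 (28.0 and 39.2), and Entpd2 in the other 6 libraries, with its highest levels in clusters 1, 4 and 7 (71.0 to 110).

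AMP is also a substrate of tissue-nonspecific alkaline phosphatase, Alpl, an enzyme of bone mineralisation. Alpl RPKM was 26.5, 124, 85.3, 80.6, 49.8, 404 and 99.5 in clusters 1 to 7 in turn and 13.1 in the input. Like Nt5e it was highest in cluster 6 and next in cluster 2, and the Pearson's r of the 2 genes over the 7 libraries was 0.90. Alpl exceeded Nt5e 3.0 times in cluster 1 and 9.28 times in cluster 5, the lowest and highest sorted ratios, and was below Nt5e in the input, with a ratio of 0.505. Panx3, a channel of osteoblasts and chondrocytes through which ATP can leave the cell, had RPKM 151 in cluster 6 and 90.4 in cluster 2, and at most 3.18 in the other sorted libraries. The summed RPKM of the osteoblast markers Runx2, Sp7, Ibsp, Bglap, Bglap2 and Spp1 was 850, 7476, 25693, 2383, 9502, 24684 and 2697 in clusters 1 to 7 in turn and 961 in the input. None of the 6 was at 0, and the most abundant was Bglap, or Spp1 in clusters 4 and 7 and the input. This sum was high in cluster 6 together with Nt5e and Alpl, but also in cluster 3, where Nt5e was 11.9. With TMM factors cluster 6 had the higher sum of the 2 (31817 compared with 26116). Most of the sum in cluster 3 was Bglap (14020) and Bglap2 (9949). Ibsp (446) and Runx2 (4.37) were lower in cluster 3 than in clusters 2, 4, 6 and 7. Sp7 (20.8) was lower there than in clusters 2 and 6 only, and Spp1 (1253), by total count, than in clusters 4, 6 and 7. The part of the osteoblast markers in the Nt5e levels was not tested.

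Ada (ENSMUSG00000017697, chr2:163726584-163750239, minus strand) encodes adenosine deaminase, which turns adenosine into inosine. Its RPKM was 6.73, 6.27, 5.82, 9.30, 3.93, 4.59 and 11.4 in clusters 1 to 7 in turn and 10.3 in the input, from between 101 and 756 reads. Its range was narrower than those of Entpd1 and Nt5e, and 3 of its 6 neighbouring pairs had ratios whose intervals held 1. Cluster 7 had 2.89 times the RPKM of cluster 5 (2.35 to 3.59), 2.07 times with TMM factors, and 1.89 times with DESeq2 size factors. Its ratio to the input, 1.10, had an interval that held 1 (0.975 to 1.24), and was 1.70 with TMM factors. When Rn18s-rs5, Lars2 and mmu-mir-689-2 were left out of the totals, the lowest library was cluster 6 (4.66) and not cluster 5. Cluster 7 (11.4) was then still the highest, and its ratio to cluster 5 was 1.89.

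The other route of adenosine removal was more abundant at the transcript level. Adk, adenosine kinase, which returns adenosine to AMP inside the cell, had RPKM 77.1, 105, 96.5, 77.5, 34.0, 127 and 100.1 in clusters 1 to 7 in turn and 124.6 in the input. It exceeded Ada by between 8.33 times in cluster 4 and 27.6 times in cluster 6, and 12.1 times in the input. Slc29a1, the equilibrative transporter that carries adenosine across the membrane, was between 25.4 in cluster 5 and 94 in cluster 6. Pnp, which processes the inosine made by Ada, was between 21.4 in cluster 6 and 107 in cluster 4. Dpp4 (CD26), to which secreted adenosine deaminase is known to bind in human cells, had RPKM 20.9 in cluster 3, 7.69 in cluster 1 and 4.88 in cluster 7, at most 1.68 in the other sorted libraries, and 8.72 in the input.

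Adora2b (ENSMUSG00000018500, chr11:62248984-62266453, plus strand) encodes the adenosine receptor of low affinity, which raises cyclic AMP. Its RPKM was 7.32, 1.5, 4.64, 4.38, 1.90, 3.03 and 8.71 in clusters 1 to 7 in turn and 19.5 in the input, from between 45 and 724 reads. Clusters 7 and 1 were highest and clusters 2 and 5 lowest of the sorted libraries. Cluster 7 had 5.82 times the RPKM of cluster 2 (4.53 to 7.58), and 2 of the 6 neighbouring pairs had ratios whose intervals held 1. The input was 2.24 times cluster 7 (2.0 to 2.50), and with TMM factors it remained above, at 12.2 compared with 8.42. In cluster 2, where Nt5e was the second highest, Adora2b was the lowest.

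Adora1 (ENSMUSG00000042429, chr1:134199223-134235431, minus strand) encodes a receptor that lowers cyclic AMP, and Adora2a (ENSMUSG00000020178, chr10:75316943-75334788, plus strand) the one best known on immune cells, which raises it. Adora1 had 5, 34, 17, 156, 12, 50 and 14 reads in clusters 1 to 7 in turn and 121 in the input, with RPKM from 0.0357 in cluster 1 to 0.828 in cluster 4 and 1.04 in the input. Cluster 4 was 3.04 times the next sorted library, cluster 6 (2.19 to 4.26), and the interval of its ratio to the input held 1. Of its exonic bases, 1162 overlap Mybph on the opposite strand, and since the strandedness of the counting is not given in the sources used here, these reads cannot be told apart. Adora2a had 18, 19, 9, 24, 21, 6 and 30 reads in clusters 1 to 7 in turn and 106 in the input. Its RPKM ranged from 0.0748 in cluster 6 to 0.646 in cluster 5, and was 2.07 in the input. All 6 neighbouring pairs of sorted libraries had Adora2a ratios whose intervals held 1, so an order of neighbours was not detectable at this depth.

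Adora2b took most of the summed RPKM of Adora1, Adora2a and Adora2b in each library. Its share of the sum was 70.2% in cluster 5, the lowest, 95.7% in cluster 1, the highest, and 86.2% in the input. Adora3, which overlaps another gene of the same symbol and is therefore uncertain, had at most 14 reads in a sorted library and 42 in the input.

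P2rx7 (ENSMUSG00000029468, chr5:122643911-122691432, plus strand) encodes the ATP-gated channel that opens at high ATP and is known for triggering the inflammasome. Its RPKM was 2.29, 0.91, 1.10, 2.05, 1.20, 0.725 and 2.26 in clusters 1 to 7 in turn and 4.79 in the input, from between 92 and 577 reads. The levels lay above 2 in clusters 1, 7 and 4 and were at most 1.20 in the others. In the order, the step from cluster 4 to cluster 5 was a ratio of 1.71 (1.36 to 2.16), and the other 5 neighbouring pairs had ratios whose intervals held 1. Cluster 1 was 3.16 times cluster 6 (2.58 to 3.89). With TMM factors cluster 7 was highest and cluster 2 lowest of the sorted libraries. The input was 2.09 times cluster 1 (1.83 to 2.40), and with TMM factors cluster 1 had 0.691 of the input level. Over the 7 sorted libraries P2rx7 had a Pearson's r of 0.83 with Entpd1 and 0.98 with Entpd2, both of which were likewise highest in clusters 1, 4 and 7, and of -0.86 with Entpd3.

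By the same measure, among 7441 genes that differed more than 2-fold between sorted libraries with at least 50 reads in the highest (7442 for P2rx7), those most like each of the 5 genes above RPKM 2 were named. For Entpd1 they were Armc7 (r = 0.98), Epha3 (0.97) and Spatc1 (0.97). For Nt5e, Slc39a11 (0.99) and Mogs (0.99) were among them. For Ada they were Ppap2a (0.99), Tap1 (0.98) and Plekhg5 (0.98), for Adora2b Stat6 (0.99), 1810030O07Rik (0.99) and Txndc16 (0.99), and for P2rx7 Abca8a (0.99), Gfra2 (0.99) and Fzd7 (0.99). An r of at least 0.95 was reached by 10 genes for Entpd1, 25 for Nt5e, 10 for Ada, 62 for Adora2b and 100 for P2rx7. Each r rests on the same 7 libraries and their scaling.

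In the input, Adora2a, Adora2b and P2rx7 were above all 7 sorted libraries, the position of 59.8% of genes tested, which are those with RPKM above 2 in a library. Adora2a met this filter only through its input level, so its position was in part fixed by the filter. Adora1, which did not meet it, was also above the sorted libraries, but with TMM factors it was below cluster 4 (0.65 compared with 0.849). Adora2b and P2rx7 stayed above the sorted libraries with TMM factors, the position then of 29.6% of genes tested, and so did Adora2a at 1.30, then under the filter. Of the genes tested, Adora2b alone was more than 2-fold above every sorted library in RPKM + 1, where 31.2% of genes tested were, and none of the 7 genes was more than 2-fold below, where 0.472% were. With TMM factors Adora2b did not pass, where 18.4% of genes did. The input library also held reads on genes of no known role in marrow. The median RPKM of 858 olfactory receptor genes was 0.174 in the input and 0 in each sorted library. The input RPKM of Adora1 exceeded that of 80.8% of these genes, Adora2a that of 91.5% and P2rx7 that of 98.7%, while Entpd1, Nt5e, Ada and Adora2b exceeded them all. The part of this signal in the input levels was not tested.

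Markers of some blood cells were high where some of the genes were high. The summed RPKM of the macrophage and monocyte markers Adgre1, Csf1r, Cd68, Mertk, C1qa, Vcam1, Ly86 and Cx3cr1 was 40.03, 34.4, 30.3, 69.7, 45.0, 41.8 and 115 in clusters 1 to 7 in turn and 144 in the input, with none of the 8 at 0 and Cd68 the most abundant in cluster 7 and the input. With TMM factors the sum in cluster 7 was above that in the input (111.5 compared with 90.3). Under this scaling Cd68 (31.3 compared with 33.5) and Ly86 (20.4 compared with 23.3) were lower in cluster 7 than in the input, and the other markers higher. Among these, Vcam1 is also a stromal gene, at 26.7 in cluster 7 and 10.6 in the input by total count. Vcam1 was the most abundant of the 8 in clusters 1, 3, 4 and 5, at 26.0 in cluster 4, which had the second highest sorted sum. The sum was highest in cluster 7 among the sorted libraries, as were Ptprc, Entpd1, Ada and Adora2b, but in cluster 1 it was 40.03 while Entpd1 was 8.55. The 8 neutrophil markers, led by S100a9, summed to between 10819 in cluster 3 and 28769 in cluster 7, and to 42396 in the input, with none at 0. With TMM factors the neutrophil sum was highest in cluster 5 (34479), followed by cluster 7 (27802) and the input (26548). The 8 T and NK cell markers summed to at most 3.18 in a sorted library, in cluster 7, and to 8.34 in the input, and Ncr1 was at 0 in cluster 1 and Cd4 and Cd8a in cluster 5.

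Endothelial cells also carry CD39. Their markers Pecam1, Cdh5, Kdr, Emcn, Tek and Tie1, with none at 0, summed to 13.4, 6.45, 10.7, 3.57, 11.4, 2.64 and 9.15 in clusters 1 to 7 in turn and 13.2 in the input. Cluster 1, with Entpd1 at 8.55, had the highest sum of the sorted libraries, and cluster 4, with Entpd1 at 7.34, one of the lowest. With TMM factors clusters 5 (15.4), 1 (12.1), 3 (10.9) and 7 (8.84) lay above the input (8.27). The 7 erythroid markers summed to 68516 in cluster 5, led by Hba-a1, and to between 1593 in cluster 6 and 14564 in cluster 1 in the other sorted libraries, with 690 in the input. The 4 megakaryocyte markers, led by Pf4, summed to between 3.66 in cluster 6 and 73.2 in cluster 3, and to 12.6 in the input, with Gp9 at 0 in cluster 2. The part of these cells in the levels of the 7 genes was not tested.

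**Figure D4:**
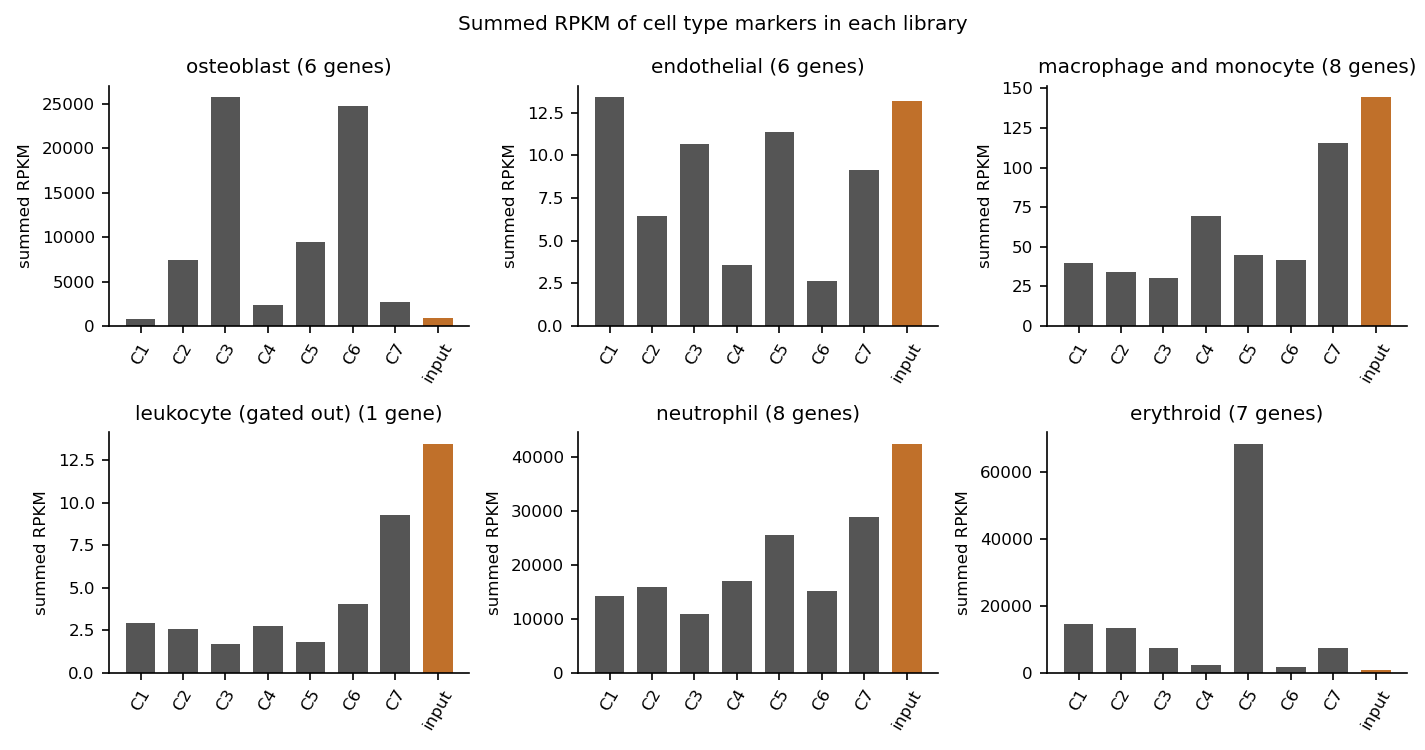
Summed RPKM (vertical axes, each from 0) of marker genes of osteoblasts, endothelial cells, macrophages and monocytes, leukocytes (Ptprc alone), neutrophils and erythroid cells in clusters 1 to 7 (grey) and the input (orange), 1 library each and without error bars. Cluster 7 has the highest macrophage sum (115) and Ptprc (9.26) of the sorted libraries, clusters 3 and 6 the highest osteoblast sums, and cluster 5 the highest erythroid sum.

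The wider pathway was followed in 45 further genes, of which 44 had values, and 30 of these had RPKM above 2 in a sorted library. Of the 30, 28 differed more than 2-fold between the highest and lowest sorted library, compared with the 70.6% of all genes given above. Their median log2 range was 1.33 over the 44 genes and 1.76 over the 30. The highest library was cluster 7 for 11 of the 28 and cluster 6 for 8, and the remaining genes peaked in clusters 1 and 4 (3 each), 3 (2 genes) or 2 (1 gene). With TMM factors cluster 7 was highest for 11 and cluster 6 for 9. Of all genes tested, past 2-fold or not, 25.3% peaked in cluster 7 and 7.10% in cluster 6 by total count, and 17.1% and 20.9% with TMM factors. The 28 are only genes past 2-fold, so these shares are not their exact background. In the input, Entpd8, P2rx3 and P2ry6 were more than 2-fold above every sorted library, at 2.21, 5.65 and 3.68 compared with at most 0.115, 0.555 and 0.729. All 3 had RPKM above 2 only in the input, so nothing is read from their number, and with TMM factors only P2rx3 of the 3 passed.

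Among the other ectonucleotidases, all 6 that were tested differed more than 2-fold, as did 70.6% of all genes tested. Beside Entpd2, Entpd3 and Alpl, Enpp3, which splits ATP directly to AMP, had RPKM 8.59, 1.36, 4.48, 8.31, 2.05, 0.53 and 10.7 in clusters 1 to 7 in turn and 9.27 in the input. Like Entpd1 it was highest in clusters 7, 1 and 4 among the sorted libraries. Enpp1, which makes pyrophosphate from ATP in bone, was between 6.91 in cluster 5 and 21.2 in cluster 6, and with TMM factors lowest in cluster 1. Acp3, a phosphatase of AMP, was between 0.80 in cluster 3 and 5.08 in cluster 7, and 9.58 in the input. Of the intracellular and secreted ENTPDases, both that were tested passed, against the same background of 70.6%. Among the sorted libraries Entpd5 was highest in cluster 7 (7.18), or with TMM factors in cluster 6 (7.78), and Entpd7 in cluster 2 (2.68). In the input Entpd5 was 9.86, and 6.18 with TMM factors. Entpd5 was no longer past 2-fold with TMM factors.

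Of the ATP receptors other than P2rx7, 3 of the 6 P2X genes and 2 of the 7 P2Y genes had RPKM above 2 in a sorted library, and all of these differed more than 2-fold, where 70.6% of all genes tested did. With TMM factors P2rx5 was no longer past 2-fold. P2rx4 was the most abundant P2X gene, at 6.65 in cluster 7 and 1.97 in cluster 5, with 10.1 in the input. P2ry2, which responds to ATP and UTP, had RPKM 3.58, 1.07, 5.40, 4.83, 0.79, 1.94 and 3.08 in clusters 1 to 7 in turn and 4.12 in the input. Its lowest levels were thus in clusters 5 and 2, as for Adora2b. Of the genes of ATP release, 4 of 4 tested passed, and besides Panx3 they were Gja1 (connexin 43), Panx1 and Slc17a9, the vesicular nucleotide transporter. Among the sorted libraries Gja1 was between 103 in cluster 2 and 339 in cluster 6, with 90.6 in the input. Panx1 was between 1.04 in cluster 6 and 7.05 in cluster 1, and with TMM factors highest in cluster 4. Slc17a9 was between 1.53 in cluster 4 and 9.08 in cluster 6.

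The inflammasome genes downstream of P2rx7 were all 6 tested, and Nlrp3, Casp1, Il1b and Gsdmd differed more than 2-fold, each with its highest sorted level in cluster 7. This count of 4 of 6 compares with the 70.6% of all genes tested that passed and the 25.3%, past 2-fold or not, that peaked in cluster 7. Il1b, the cytokine precursor cleaved by caspase-1, had RPKM 63.0, 42.9, 20.3, 77.8, 49.0, 62.9 and 188 in clusters 1 to 7 in turn and 329 in the input. Casp1 was 7.24 in cluster 7, between 1.43 and 3.53 in the other sorted libraries, and 13.6 in the input. Gsdmd was 23.3 in cluster 7 and 21.4 in the input, whereas Nlrp3 was 6.91 in cluster 7 and 3.67 in the input, below clusters 1, 2, 4, 6 and 7. The levels of Casp1 and Il1b were high where the macrophage sum and Ptprc were high, in cluster 7 and the input, and the part of blood cells in these levels was not tested. Both NAD ectoenzymes, Cd38 and Bst1, likewise had their highest sorted level in cluster 7, at 3.23 and 3.30. Their lowest sorted level was in cluster 3, at 0.73 and 0.34. By total count both genes were higher in the input than in cluster 7, and with TMM factors only Bst1 was.

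**Figure D5:**
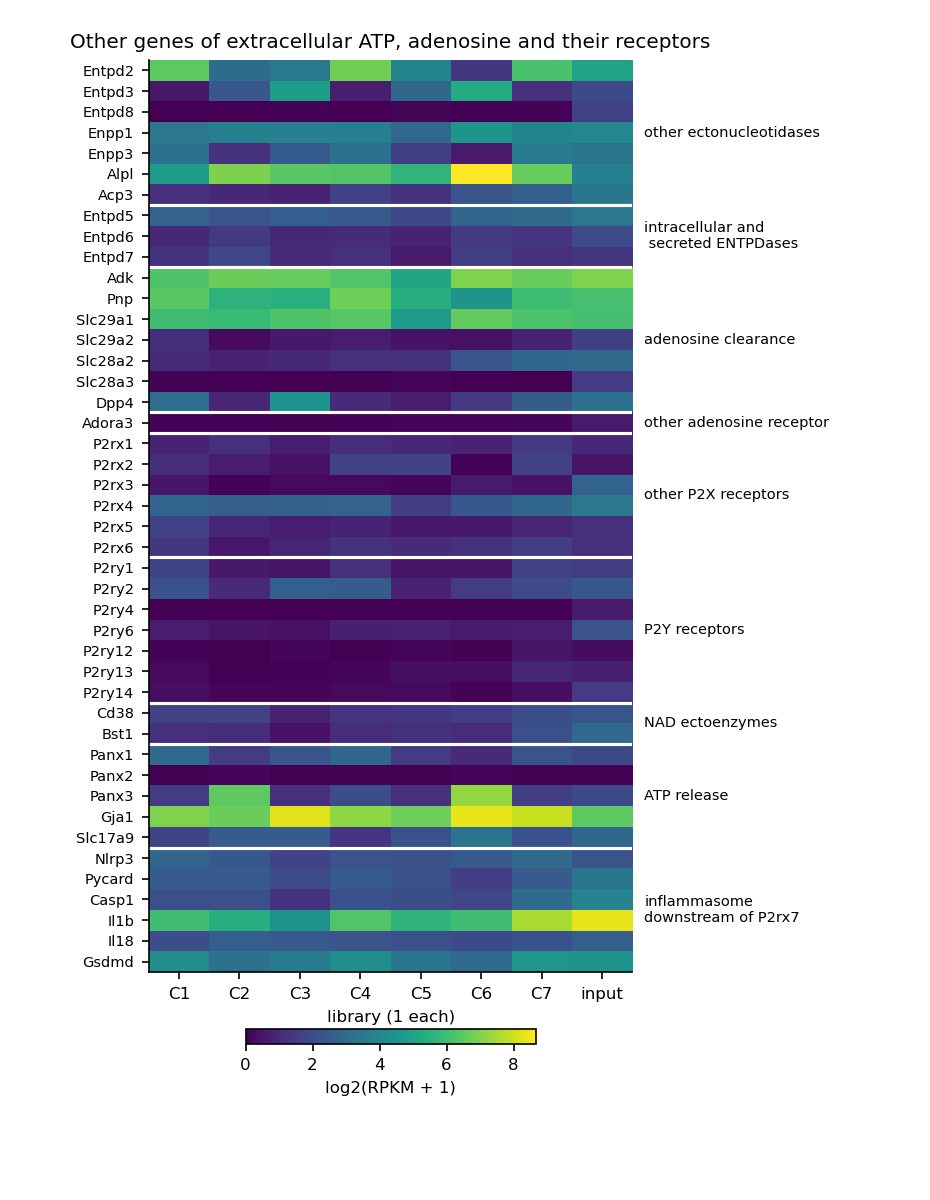
Heat map of log2(RPKM + 1) of 44 further genes (rows, grouped by role) in clusters 1 to 7 and the input (columns, 1 library each), from dark (0) to bright. Alpl and Panx3 are brightest in cluster 6, Entpd2 is bright in clusters 1, 4 and 7, and Entpd3 is bright in clusters 3 and 6.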

How the data were processed

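RNA was measured by RNA-seq in 7 sorted populations and 1 input sample, with 1 library each. The files deposited hold unnormalised read counts for each Ensembl gene, with its exon positions, strand and length. According to the methods, reads were trimmed, aligned by TopHat2 to mm9 in Partek Flow and expressed as RPKM, and the submitters' processing notes name Partek 2.2. The gene positions in the files are those of GRCm38, since 96.2% of 23289 symbols started within 10 kb of RefSeq GRCm38.p6. The counting tool and its use of strand are not given in the sources used here. The protocol in the labels describes crushed marrow and differs from that of the methods in its RNA amount and kit.

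RPKM was calculated by dividing these counts by exon length and by the summed count of the library, and log2 values had a pseudocount of 1. With 1 library per population no test was run. Thresholds were those of the methods, RPKM above 2 and a fold change above 2, the latter applied here to RPKM + 1. Total counts ranged from 12833648 to 33238133 in the sorted libraries. Intervals (95%) cover counting error only, as PCR copies were not separated. Symbols were given to 32464 of 49315 genes. Entpd4 was given no value, as its identifier lies at a near-identical copy. Promoter windows were taken from a table of RefSeq GRCm38.p6, in which 6 of the 7 genes were matched, and windows that overlap annotated exons were not printed. The genes named were the 7 members, pathway genes that were past 2-fold or the extremes of their list by mean level, and for each member above RPKM 2 the 3 genes with the highest r. A gene named by this rule and a marker list are not reported here. A few values of other pathway genes, such as the read counts of Adora3 and the genes above 2-fold in the input, were named after they had been seen. The 7 genes and all lists were chosen with earlier results of these data known. Alternatives comprised TMM and DESeq2 size factors, totals that leave out Rn18s-rs5, Lars2 and mmu-mir-689-2, a pseudocount of 0.1, other RPKM filters and omission of cluster 5. Calculations were tested on simulated data. Scaling factors came from edgeR 4.0.16 and DESeq2 1.42.0 in R 4.3.3, intervals from scipy 1.17.1 with pandas 2.3.3 and numpy 2.4.6 in Python 3.11.15, and plots from matplotlib 3.10.9.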

Additional observations from a re-analysis of the deposited data

How the results depend on the processing

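No paired analysis was possible because there was a single library of each population and no shared replicate number. Among 53 values computed again, 39 were unchanged (counts within 1.5 times the reported count, ratios within their counting interval), 14 moved and 0 reversed. The number of the 7 genes more than 2-fold above every sorted library in the input, reported as 1, was 0 with TMM factors, 0 with DESeq2 size factors, 3 with a pseudocount of 0.1 and 0 with RPKM above 2 in every library. Of all genes tested, 31.2% passed by total count, 18.4% with TMM factors and 18.5% with DESeq2 size factors. The number of pathway genes past 2-fold, reported as 28, was 10 with RPKM above 2 in every library, where fewer genes are tested, and between 23 and 29 under the other alternatives. The lowest ratio of Entpd1 in cluster 1 to a CD39- gate, reported as 1.89, was 1.33 with TMM factors and 1.30 with DESeq2 size factors. The number of the 7 genes past 2-fold between sorted libraries, reported as 4, lay between 3 and 5. Of all genes tested, 70.6% were past 2-fold by total count, 56.8% with TMM factors and 55.8% with DESeq2 size factors. Without a filter, 20.9% of all 49315 genes were. For the other alternatives no share of all genes is given, so nothing is read from those counts. Depth limited Adora1 and Adora2a, with at most 156 and 30 reads in a sorted library, and the variation between sorts of one population is in none of the values.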
